A study of Mus musculus with 30 samples.

Results

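Myc, Mycn and Pvt1 were followed as a named set of 3 genes, out of 24421 listed, through 30 mouse libraries: 28 of tumours and 2 of normal cortex. They were chosen by name with earlier results in view, and the measured value that chose them was the very high Myc level of library 1 of the A289I group, so that library's Myc, and the Pvt1 known with it, are given as descriptions. All 3 were among the 15824 genes that reached 1 RPM (a read count scaled to a common library size) in at least 3 libraries and so entered the tests.

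The study asked how forms of the epidermal growth factor receptor, EGFR, shape gene expression in a mouse model of glioblastoma, a malignant glial brain tumour. Each library held the polyadenylated RNA of bulk cortical tumour, or of cortex, taken at postnatal day 70. The tumours carried mCherry, a fluorescent protein that stands in for the receptor (3 libraries), wild-type EGFR (3), or EGFR with 1 amino acid exchanged: A289I (5), A289V (4), R108G (3), R108K (4), R222C (3) or T263P (3). The 2 normal cortex libraries came from mice whose disease state is given as wild type. Strain, sex and the alterations that started the tumours and that all tumour groups share are not given in the sources used here, nor are the promoter, the delivery and the species of the introduced receptor. Different mice were used within a group, and nothing more is stated about the replicates.

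Myc encodes a basic helix-loop-helix leucine zipper transcription factor that pairs with MAX, binds E-box DNA and raises the transcription of genes for ribosome assembly, nucleotide synthesis and the cell cycle. Mycn encodes its close relative N-MYC, which is best known in neural progenitors, neuroblastoma and medulloblastoma. Pvt1 is a long non-coding RNA gene just downstream of Myc, and it is gained together with Myc in many cancers.

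On mm10, GENCODE places Myc (ENSMUSG00000022346.15) at chr15:61985391-61990374 on the plus strand, with exons that cover 2717 bases. Pvt1 (ENSMUSG00000097039.8) lies on the same strand at chr15:62037986-62378096, starts 47.6 kb past the end of Myc, and has exons that cover 6996 bases. Mycn (ENSMUSG00000037169.15) lies on another chromosome, at chr12:12936093-12941914 on the minus strand, with exons that cover 3295 bases. RefSeq (GRCm38.p6) start-site windows were at hand for Mycn, not for Myc or Pvt1. The 250 bases upstream of the RefSeq Mycn start are chr12:12941837-12942086, read on the minus strand. That start lies inside the gene as GENCODE places it, so the last part of the stretch overlaps the GENCODE gene. The bases are shown because they hold letters of the E2F type, E2F proteins being activators of the cell cycle. The capitals mark matches to TTTGGCGC or TTTCGCGC on either strand, which overlap where 2 matches share letters.

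Mycn upstream: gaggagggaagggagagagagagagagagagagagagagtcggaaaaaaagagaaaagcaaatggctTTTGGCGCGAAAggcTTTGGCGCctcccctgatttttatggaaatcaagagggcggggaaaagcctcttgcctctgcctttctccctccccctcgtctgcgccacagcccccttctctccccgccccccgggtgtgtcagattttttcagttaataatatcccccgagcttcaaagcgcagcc

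Of the 32851 start-site windows in the table (250 bases before to 50 after each start), 267 (0.813%) held at least 1 of these 2 words. A match describes letters and does not show binding.

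The libraries held 2784129 to 24475215 reads, so 1 read was worth 0.0387 to 0.383 RPM. Titles carry a library number, and the libraries fell into 3 ranges of it (below 20, 20 to 37, above 37). Both cortex libraries and all of R222C and T263P lay in the middle range, and all of A289I and R108G in the highest, so group and range cannot be told apart there. Rn45s, a ribosomal RNA precursor, took 2.47% to 4.57% of the reads of the tumours in the middle range and 0.117% to 1.32% in the other tumours. Neuron markers summed to 9696 to 9992 RPM in cortex and to 151 to 8175 RPM in tumours, and dividing-cell markers to 10.3 to 11.0 and 302.2 to 1814 RPM. In bulk tissue, fewer cells of a type and less RNA per cell cannot be told apart.

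Myc was high in every tumour and very low in normal cortex. The cortex libraries held 4.99 and 4.81 RPM of Myc, and the 28 tumours had a lowest value of 51.3, a median of 151 and a highest of 660.4. No tumour came near the cortex range. All 28 tumours lay above both cortex libraries, as was so for 16% of all tested genes.

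Among the controls, the mCherry tumours held 155, 136 and 288.6 RPM of Myc, and the wild-type EGFR tumours 156, 97.1 and 192. Library 3 was the highest in both groups and came from a higher range of library numbers than libraries 1 and 2, and the groups overlapped. The R108G tumours gave 115, 158 and 73.4 RPM, and the R108K tumours 97.4, 73.8, 291 and 184. R108K thus reached from near the bottom of the tumour range to the second highest Myc value of the series, with its libraries 1 and 2 in the lowest and 3 and 4 in the middle range of library numbers. The R222C tumours held 275, 204 and 154 RPM, the T263P tumours 196, 240.4 and 178. All 6 stood above the tumour median. The A289V tumours held 77.4, 51.3, 127 and 125 RPM, all below that median. The A289I tumours held 660.4, 78.6, 125, 78.1 and 149 RPM, so library 1 stood far above the other 4, which overlapped the A289V tumours.

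**Figure D1:**
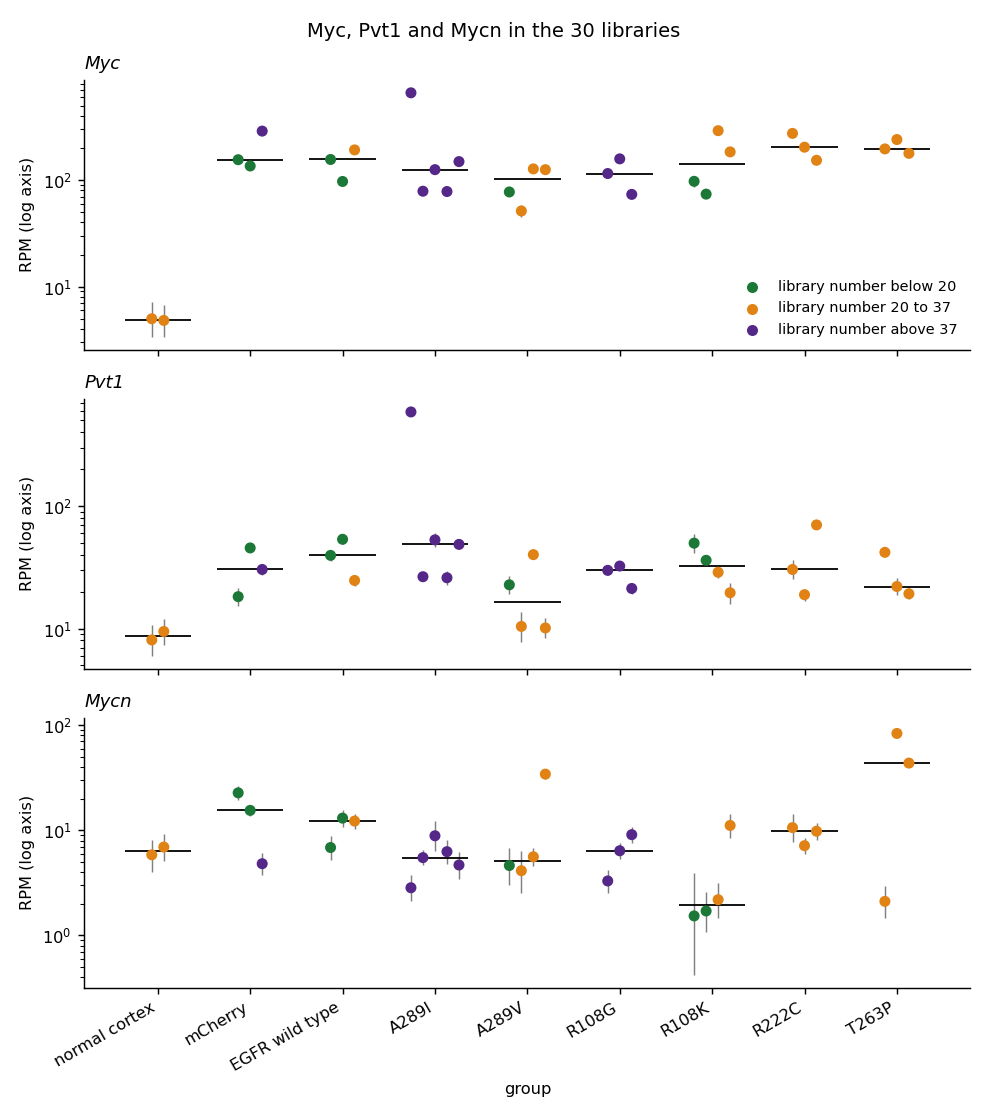
Myc, Mycn and Pvt1 in every library, in RPM on log axes, by group. Points are libraries coloured by range of library number, bars are exact Poisson 95% intervals of the reads, and black lines are group medians. Myc lies above 51 RPM in all 28 tumours and at 4.81 and 4.99 in cortex, Mycn runs from 1.53 to 83.5 RPM, and A289I library 1 tops the Myc and Pvt1 panels.

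The group means of Myc were ordered A289I (218 ± 249 RPM, SD, n = 5), R222C (211 ± 60.9, n = 3), T263P (205 ± 31.9, n = 3), mCherry (193 ± 83.1, n = 3), R108K (162 ± 98.6, n = 4), wild-type EGFR (148 ± 48.0, n = 3), R108G (116 ± 42.5, n = 3), A289V (95.4 ± 37.4, n = 4) and cortex (4.90 ± 0.125, n = 2). Without library 1 the A289I mean was 107.8 ± 35.4 RPM (n = 4), between R108G and A289V. Every pair of neighbours among the tumour groups overlapped and differed by less than the larger SD. The step from A289V down to cortex, 90.5 RPM, was the only one that exceeded it.

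Against cortex, Myc rose in mCherry tumours by 4.96 ± 0.65 (log2 fold change ± SE; limma, adjusted p = 5.14e-06), a ratio of mean RPM of 39.5. In the 20 tumours with an EGFR form other than A289I it rose by 4.60 ± 0.53 (limma, adjusted p = 3.63e-07), a ratio of 31.3. These comparisons share the 2 cortex libraries. limma called 38.3% of all tested genes between mCherry tumours and cortex (17.8% higher) and 47.2% between the EGFR-form tumours and cortex (22.9% higher). Within the middle range of library numbers, which holds the cortex libraries, the EGFR-form value was 4.92 (limma, adjusted p = 8.42e-06), and no range held both mCherry and cortex libraries. Dividing-cell markers moved with Myc: 10 of 10 rose in mCherry tumours, from a sum of 10.3 to 11.0 RPM in cortex to 685 to 1087 RPM, with none at 0. Of the neuron markers 9 of 10 fell, from 9696 to 9992 RPM to 654 to 2286 RPM. Their part in the Myc difference was not tested.

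Pvt1 was also above cortex in all 28 tumours, by a smaller margin, and neither comparison passed in the fit of all 30 libraries. The cortex libraries held 8.08 and 9.48 RPM of Pvt1, and the tumours had a lowest value of 10.1, a median of 30.1 and a highest of 587. The mCherry tumours held 18.2, 45.5 and 30.4 RPM, and the wild-type EGFR tumours 39.6, 53.6 and 24.7. These 6 overlapped, and library 2 was the highest in both groups. The R108G tumours held 29.9, 32.4 and 21.3 RPM of Pvt1, the R108K tumours 49.8, 36.1, 28.8 and 19.6. R108K library 3, which had the most Myc of its group, was thus not the one with the most Pvt1. The R222C tumours held 30.4, 18.9 and 70.2 RPM, the T263P tumours 41.9, 22.1 and 19.2. R222C library 3, with the least Myc of its group, had the second highest Pvt1 of the series. The A289V tumours held 22.8, 10.4, 40.2 and 10.1 RPM, with 2 libraries just above cortex. The A289I tumours held 587, 26.5, 53.0, 26 and 48.7 RPM, library 1 again far above the other 4.

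The group means of Pvt1 ran from A289I (148 ± 245 RPM, SD, n = 5; 38.6 ± 14.3 without library 1) through R222C (39.8 ± 26.9, n = 3), wild-type EGFR (39.3 ± 14.4, n = 3), R108K (33.6 ± 12.8, n = 4), mCherry (31.4 ± 13.7, n = 3), R108G (27.8 ± 5.84, n = 3), T263P (27.7 ± 12.4, n = 3) and A289V (20.9 ± 14.1, n = 4) to cortex (8.78 ± 0.988, n = 2). No neighbours in that order differed by more than the larger SD, and only A289V and cortex did not overlap. The mCherry tumours differed from cortex by 1.64 ± 0.85 on the log2 scale (limma, adjusted p = 0.129). The EGFR-form tumours other than A289I differed from cortex by 1.59 ± 0.69 (limma, adjusted p = 0.0597). Both passed with library weights (limma, adjusted p = 0.0252 and 5.22e-05) and with only the groups compared in the fit (0.0307 and 0.00812), and DESeq2 on the reads passed the second (0.0308). Both also passed when A289I library 1 was left out of the fit, where it adds only to the shared estimate of spread, at 1.64 ± 0.56 and 1.59 ± 0.45 (limma, adjusted p = 0.0223 and 0.00561). Within the middle range of library numbers the second was 1.38 (limma, adjusted p = 0.0504).

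Mycn did not separate tumour from cortex, and varied more between tumours than Myc did. The cortex libraries held 5.85 and 6.93 RPM of Mycn, with 13 of the 28 tumours above both and 12 below both. The tumours ran from 1.53 RPM through a median of 6.62 to 83.5, a span of 54.4-fold, beside 12.9-fold for Myc. The mCherry tumours held 22.7, 15.5 and 4.81 RPM, and the wild-type EGFR tumours 6.86, 13.1 and 12.2. The wild-type values lay inside the mCherry range. The R108G tumours held 3.30, 6.39 and 9.09 RPM, the R222C tumours 10.6, 7.14 and 9.80, and the A289I tumours 2.84, 5.50, 8.87, 6.26 and 4.68. In A289I the library with the highest Myc had the lowest Mycn. The other 3 groups each had libraries set apart. The T263P tumours held 2.11, 83.5 and 43.6 RPM, the A289V tumours 4.62, 4.13, 5.60 and 34.2, and the R108K tumours 1.53, 1.71, 2.19 and 11.1. T263P libraries 2 and 3 and A289V library 4 were the 3 highest of the series, and T263P library 1 was the third lowest.

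These gaps in Mycn were wider than the counting error. T263P library 1 rested on 34 reads, with an exact Poisson 95% interval of 1.46 to 2.95 RPM, and library 2 on 628 reads, with an interval of 77.1 to 90.2 RPM. R108K library 1, the lowest, rested on 4 reads, with an interval of 0.418 to 3.93 RPM. The intervals cover counting error only, since the reads carry no molecular identifiers.

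The group means of Mycn were ordered T263P (43.1 ± 40.7 RPM, SD, n = 3), mCherry (14.3 ± 9.01, n = 3), A289V (12.1 ± 14.7, n = 4), wild-type EGFR (10.7 ± 3.37, n = 3), R222C (9.19 ± 1.81, n = 3), cortex (6.39 ± 0.768, n = 2), R108G (6.26 ± 2.90, n = 3), A289I (5.63 ± 2.21, n = 5) and R108K (4.14 ± 4.67, n = 4). Only the step from R222C to cortex exceeded the larger SD without overlap. mCherry tumours differed from cortex by 0.84 ± 0.95 (log2 fold change ± SE; limma, adjusted p = 0.515), and all EGFR-form tumours by 0.26 ± 0.77 (limma, adjusted p = 0.802). Within the middle range the second was 0.64 (limma, adjusted p = 0.632).

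**Figure D2:**
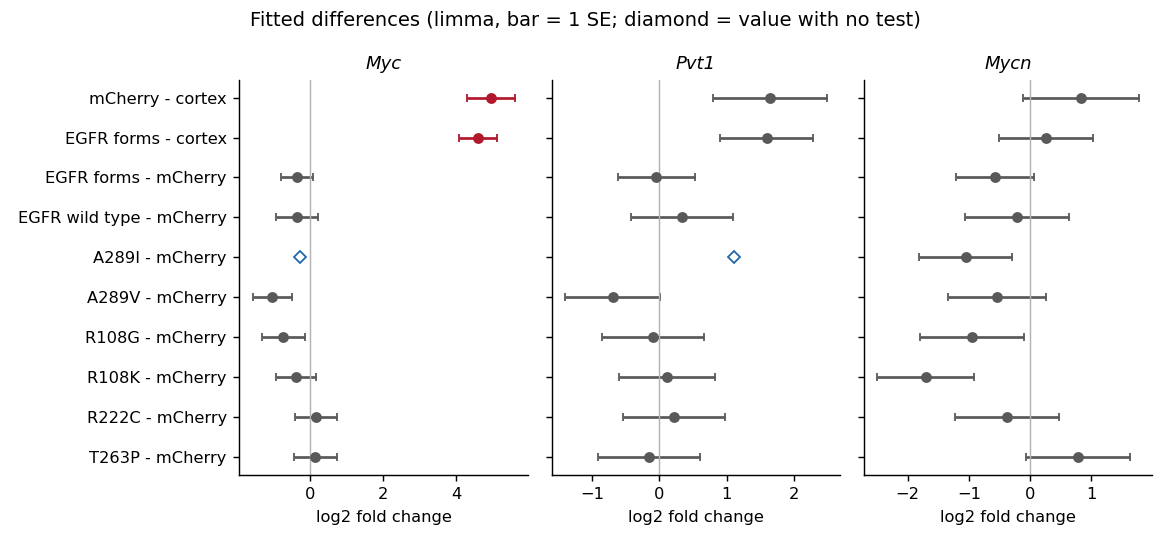
Log2 fold changes of Myc, Mycn and Pvt1 from limma, with bars of 1 SE, for tumours against cortex and for EGFR forms against mCherry. Red points passed an adjusted p of 0.05 and open diamonds carry no test. Only Myc against cortex is red, at 4.96 and 4.60.

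Per kb of exon the order of the genes changed between tissues. In cortex the mean levels were 1.80 RPM per kb for Myc, 1.94 for Mycn and 1.25 for Pvt1. In the 28 tumours the means were 62.3, 3.73 and 7.44 RPM per kb, and the medians 55.7, 2.01 and 4.31. Mycl, the relative that encodes L-MYC, held a mean of 4.15 RPM per kb in cortex and 10.5 in tumours (median 9.03). On this length-corrected scale Myc was thus near Mycn and Pvt1 and below Mycl in cortex, and the highest of the 4 in tumours.

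The other members of the family listed were Mycl and Bmyc, and Mycs did not pass the filter. Mycl held 15.3 to 18.2 RPM in cortex and 8.56 to 135 RPM in tumours, and its mCherry against cortex value was 0.87 ± 0.87 on the log2 scale (limma, adjusted p = 0.457). Bmyc, which encodes a short relative of MYC without the DNA-binding domain, held 76.0 to 86.4 RPM in cortex and 14.5 to 45.7 RPM in tumours. All 28 tumours lay below both cortex libraries, as for 14.8% of all tested genes. Bmyc fell by 1.88 ± 0.31 on the log2 scale in mCherry tumours (limma, adjusted p = 6.20e-05), while limma called 20.5% of all genes lower there.

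Carrying an EGFR form in place of mCherry made no difference that passed the test in any of the 3 genes. Myc differed between the 6 forms other than A289I and mCherry by -0.36 ± 0.44 (log2 fold change ± SE; limma, adjusted p = 0.978), Pvt1 by -0.05 ± 0.57 (0.998), and Mycn, over all 7 forms, by -0.58 ± 0.64 (0.942). limma called 0.0316% of all tested genes in the comparison of 6 forms and 0.0379% in that of 7. Within the lowest and the highest range of library numbers the values were -0.64 and -1.38 for Myc, -1.88 and 0.18 for Mycn, and 0.29 and -0.14 for Pvt1, and none passed in limma. The mCherry arm was 2 libraries in the lowest range and 1 in the highest, which the fit assumes to vary like the other groups. The EGFR forms in the lowest range were wild type, A289V and R108K only. In the highest range the EGFR arm was R108G alone for Myc and Pvt1, and R108G with A289I for Mycn.

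Form by form, 0 of the 6 comparisons with mCherry passed for Myc, 0 of 6 for Pvt1 and 0 of 7 for Mycn in limma, in edgeR and in DESeq2. At an unadjusted p under 0.05 limma gave 0, 0 and 1 in the fit of all 30 libraries. That 1 was Mycn in R108K, at -1.70 ± 0.79 on the log2 scale (limma, adjusted p = 0.477). The share of all genes that limma called in a single comparison was 0% for wild-type EGFR and R222C, 0.00632% for T263P, 0.0379% for R108G, 0.0695% for R108K, 0.607% for A289I and 4.91% for A289V. Myc in A289V was -1.02 ± 0.54 from mCherry (limma, adjusted p = 0.248). Without A289I library 1 in the fit that difference was -1.02 ± 0.41 (limma, unadjusted p = 0.0193, adjusted p = 0.116). The F-test for any difference among tumour groups gave an adjusted p of 0.470 for Myc and 0.878 for Pvt1 over 7 groups and 0.315 for Mycn over 8 (limma), with 10% and 10.3% of all genes called. Without A289I library 1 in the fit it gave 0.192 for Myc and 0.571 for Pvt1 (limma, adjusted p, 7 groups). For Mycn the F-test depended on the tool and on 1 library. edgeR gave an adjusted p of 0.0475, DESeq2 0.00164 and limma with library weights 0.0246, and limma without T263P library 1 gave 0.0181.

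In A289I library 1, Myc and Pvt1 were both high. Its 660.4 RPM of Myc (12316 reads) was 2.27 times the next highest library, 4.43 times the median of the other 27 tumours and 6.47 times the median of the other 4 A289I tumours. Its 587 RPM of Pvt1 (10941 reads) was 8.36, 19.6 and 15.6 times the same 3 references. Pvt1 therefore stood further out than Myc. Pvt1 came to 88.8% of the Myc RPM there, to 8.08% to 55.2% (median 25.3%) in the other 27 tumours, and to 162% to 197% in cortex.

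The 2 tested protein-coding genes next to this pair were low in the same library. On the side away from Pvt1, Fam84b held 7.19 RPM in A289I library 1 against 7.67 to 28.5 in the other 27 tumours. Beyond Pvt1, Fam49b, a regulator of RAC1 and actin, held 90.2 RPM against 105 to 287. Both were the lowest of 28, by -0.95 and -0.68 on the log2 scale from the median of the others. The share of all tested genes for which that library was the lowest was 2.09%. The other protein-coding genes within 2 Mb were nearly silent and did not pass the filter: 4933412E24Rik was at 0 in all tumours and A1bg at 0 here and at most 0.482 RPM elsewhere. The gasdermin C genes, pore-forming proteins of epithelia, held 1.61 RPM (Gsdmc), 1.18 (Gsdmc2), 2.36 (Gsdmc3) and 1.88 (Gsdmc4), with highest values elsewhere of 3.09, 1.41, 0.683 and 0.839. These lay 1.38, 1.12, 1.69 and 1.25 above the median of the other 27 tumours on the log2(RPM + 1) scale. All 4 were thus higher here than in most tumours, Gsdmc3 and Gsdmc4 at their highest, but these genes are near-identical copies and their reads may be split between them. H2afy3, a processed pseudogene on the opposite strand inside Pvt1, held 7.99 RPM (149 reads) there and at most 0.532 RPM elsewhere. The counting's strand setting is not stated, so its reads cannot be told from those of Pvt1.

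Over 5 Mb to either side, 0 of 32 tested genes other than Myc and Pvt1 stood at least 1 log2 unit above the median of the other tumours, 25 were below it and 7 were the lowest of 28. Their median log2 difference was -0.51, beside -0.02 over all genes, of which 51.6% were below. Over 10 Mb 45 of 54 were below, with a median of -0.53. The 5 other genes at their lowest within 5 Mb were Asap1, an ARF GTPase activator (46.8 RPM against 54.1 to 146), Efr3a, a membrane scaffold of a lipid kinase (42.9 against 65.8 to 149), Tmem65, a mitochondrial membrane protein (26.4 against 42.6 to 121), Ndufb9, a subunit of respiratory complex I (82.5 against 92.4 to 310), and Nsmce2, a SUMO ligase of DNA repair (18.1 against 19.5 to 48.3). Among tested genes within 5 Mb, only Myc and Pvt1 were thus at least 1 log2 unit above the median of the other tumours. Tmem65, Efr3a and Ndufb9 were at least 1 log2 unit below it. DNA copy number was not measured.

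**Figure D3:**
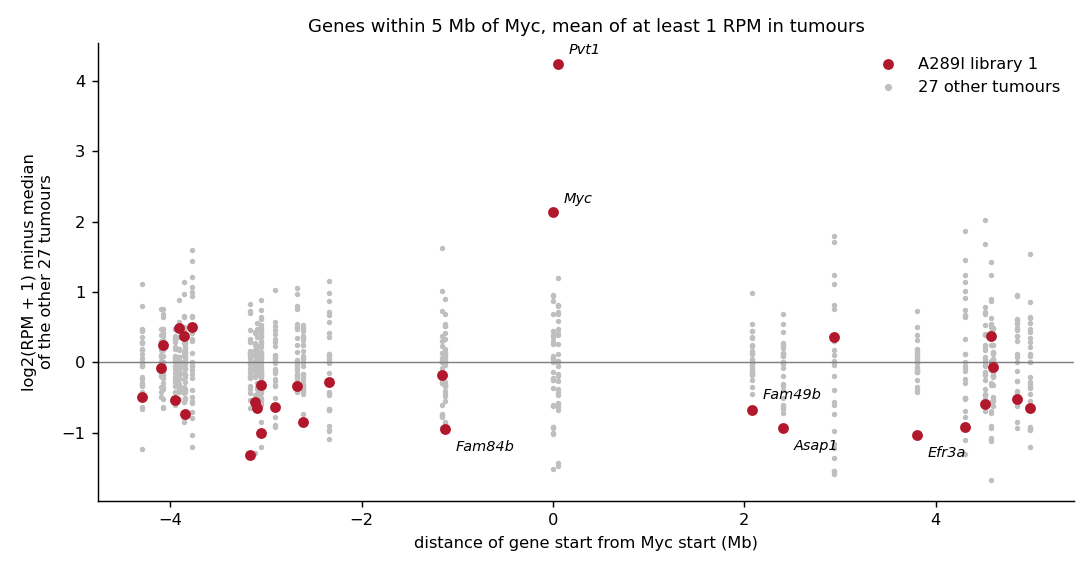
Genes within 5 Mb of Myc with a mean of at least 1 RPM, by the distance of their start from that of Myc (Mb, x axis) and their log2(RPM + 1) minus the median of the other 27 tumours (y axis). A289I library 1 is red and the other 27 tumours are grey. Red points stand far above grey at Myc (2.14) and Pvt1 (4.25), and below all grey points at Fam84b (-0.95) and Fam49b (-0.68).

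The 10 genes that most separated A289I library 1 from the next highest of the 29 other libraries included Pvt1 in place 7 and H2afy3 in place 9, and Myc was in place 24. Ahead of them stood Anxa10, an annexin of the gastric lining (234 RPM against 0.683), Col4a4, a basement membrane collagen (239 against 2.73), and Ccr3, the eotaxin receptor of eosinophils (74.6 against 0.455). Next came 2 transcripts without a known function, 4933400F21Rik (29.5 RPM) and 4930425O10Rik (13.1 RPM, listed at 0 in all other libraries), and BC049730 (28.5 against 2.56). Yeats2, a reader of acylated histones (575 against 82.6), and Macrod2, an ADP-ribose hydrolase (119 against 20.5), completed the 10. None lies on the chromosome of Myc other than Pvt1 and H2afy3.

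Genes known as MYC targets were high in the same library. Of 62 genes in 4 lists of MYC-activated targets, 39 stood at least 1 log2 unit above the median of the other 4 A289I tumours and 0 as far below it, with a median of 1.06 beside -0.05 over all genes. Of all tested genes, 3.61% were that much higher and 8.71% that much lower. Of the 62, 30 were at their highest of all 28 tumours in this library, against 3.73% of all genes. No test was made, since the library was chosen for its Myc.

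Ribosome biogenesis led, with 16 of 22 genes past that size and a median of 1.41. Npm1, the nucleolar chaperone nucleophosmin, held 1413 RPM against 309.4 to 524 in the other 4. Nop58, a core protein of the box C/D ribonucleoproteins that methylate ribosomal RNA, held 204 RPM against 49.4 to 90.2, and its partner Nop56 held 286 against 83.5 to 124. Ncl, nucleolin, held 1421 RPM against 408 to 610, and Wdr43, a factor of the small subunit processome, held 186 against 55.1 to 75.5. All 5 were the highest of 28, as were 15 of the 22. In metabolism 13 of 18 genes passed that size (median 1.07). Tfrc, the transferrin receptor, held 282 RPM against 26.8 to 83.3, Ppat, the first enzyme of purine synthesis, 97.6 against 23.8 to 32.5, and Odc1, the first enzyme of polyamine synthesis, 355 against 116 to 170. In translation and mitochondria 5 of 12 did (median 0.95), among them Hspd1, the mitochondrial chaperonin HSP60, at 872 RPM against 231 to 358. In the cell cycle list 5 of 10 did (median 0.99), among them Cdk4, the kinase of G1 phase, at 582 RPM against 220 to 284.

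Among genes that MYC is known to repress, 1 of 6 was that much lower: Ndrg1, a stress-induced growth suppressor, at -1.04. Ndrg1 lies 4.98 Mb from Myc, in the 5 Mb stretch where 25 of 32 tested genes were below the median of the other tumours. The MAX network, MAX and proteins of its wider network, had 0 of 10 past that size in either direction. Of 17 cofactors and turnover factors, 3 were higher, the mitotic kinase Aurka, the ubiquitin ligase subunit Skp2 and the ATPase Ruvbl2. Mycn (-0.84), Mycl (-0.66) and Bmyc (-0.20) were all below the median of the other 4.

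Cell markers differed in that library too. Dividing-cell markers summed to 1156 RPM against 384 to 606 RPM in the other 4 A289I tumours, with 7 of 10 at least 1 log2 unit higher. Neuron markers summed to 321 RPM against 787 to 3233, with 10 of 10 lower, and microglia and macrophage markers to 720 against 828.7 to 2005, with 6 of 8 lower. None of these markers was at 0, and their part in the list values was not tested.

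**Figure D4:**
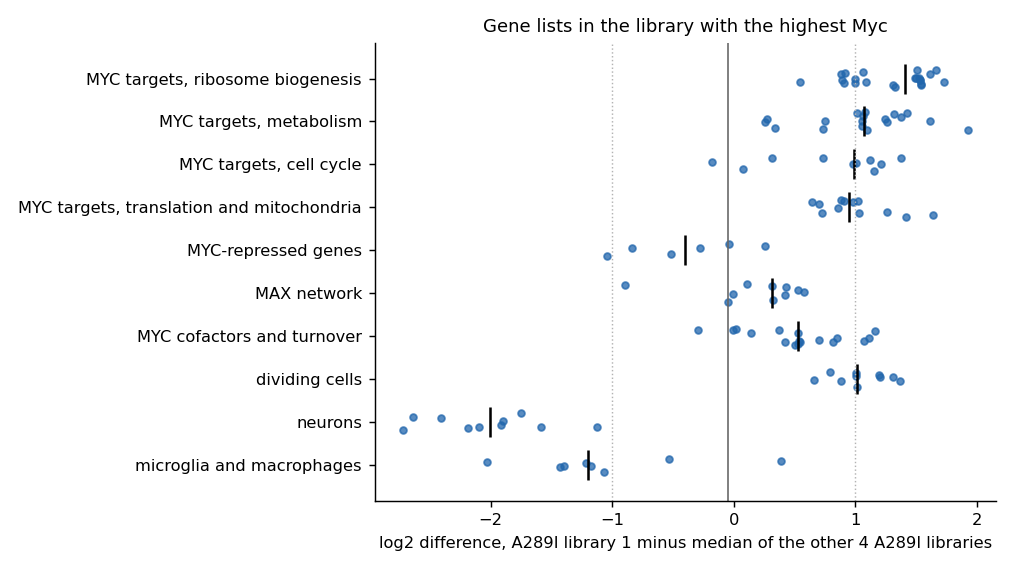
Log2 difference of A289I library 1 from the median of the other 4 A289I tumours (x axis) for the genes of each list (y axis). Points are genes, black bars list medians, the grey line the median of all genes and the dotted lines differences of 1. Ribosome biogenesis has the highest list median, 1.41, and neurons the lowest, -2.01.

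The E-box CACGTG, the preferred DNA word of MYC and MAX and its own reverse complement, was looked for in RefSeq start-site windows. It was found for 14 of the 53 MYC-activated target genes with a window (26.4%), and for 8.09% of the 27025 genes in the table. It was in 7.15% of the 32851 windows. Stretches of 40 bases around the E-box are printed for 5 genes that were past that size in A289I library 1 and have it upstream of the start, to show the word in its setting, with the E-box in capitals and GRCm38.p6 positions. Nop2, a ribosomal RNA methyltransferase, is at chr6:125131806-125131845 (plus), Impdh2, an enzyme of guanine nucleotide synthesis, at chr9:108560309-108560348 (plus), Ldha, lactate dehydrogenase A, at chr7:46845642-46845681 (plus), Cdk4 at chr10:127063346-127063385 (plus), and Hspd1 at chr1:55088301-55088340 (minus).

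Nop2: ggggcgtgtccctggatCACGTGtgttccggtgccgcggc
Impdh2: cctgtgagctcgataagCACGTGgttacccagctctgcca
Ldha: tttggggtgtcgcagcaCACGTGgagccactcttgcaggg
Cdk4: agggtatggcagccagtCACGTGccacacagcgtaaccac
Hspd1: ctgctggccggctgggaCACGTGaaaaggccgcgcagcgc

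In A289I library 1 these 5 genes held 122 RPM (Nop2), 296 (Impdh2), 1489 (Ldha), 582 (Cdk4) and 872 (Hspd1), with medians of 59.0, 118, 579, 223 and 280 in the other 4 A289I tumours. Of the other targets with an E-box, Mybbp1a (1.54) and Wdr43 (1.62) were also at least 1 log2 unit above the median of those 4. Pes1 (0.91), Nme1 (0.27), Paics (0.74), Eif4a1 (0.98), Eif4e (0.70), Eif4g1 (0.72) and Phb (0.88) were not. Whether the E-box goes with the rise was not tested, and the match is a description of letters.

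Pooled over all tumours, Pearson's r of Myc and Pvt1 rested on A289I library 1. Over 28 tumours on the log2(RPM + 1) scale, Pearson's r was 0.489 and Spearman's rho 0.0859, given without a test because that library was chosen for its Myc. In the 27 tumours without it r was 0.112 and rho -0.0195 (permutation p = 0.58 and 0.924, the same when adjusted over the 3 pairs of genes). Without the 2 tumours farthest from the median Myc, A289I library 1 and A289V library 2, r was -0.0849. Within the ranges of library numbers r was -0.106 (n = 7), 0.416 (n = 12) and 0.838 (n = 9). The last holds that library, and rho there was 0.833, so the 2 genes were ordered alike within that range. Over the 27, Myc and Mycn gave r = 0.267 and rho = 0.253 (permutation p = 0.178 and 0.203, adjusted 0.267 and 0.304). Mycn and Pvt1 gave r = -0.346 and rho = -0.289 (permutation p = 0.0765 and 0.141, adjusted 0.229 and 0.304). Within ranges, lowest to highest, r was 0.687, 0.121 and -0.636 for Myc and Mycn, and -0.260, -0.321 and -0.565 for Mycn and Pvt1. The last value of each pair again includes A289I library 1, so it does not describe the range without that library. Of the 28, without the 2 tumours farthest in the first gene, r was 0.234 and -0.339. The second of these left out T263P libraries 2 and 3 and kept A289I library 1.

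The mean of the ribosome biogenesis list rose with Myc across the other tumours as well. In 27 tumours without A289I library 1, r was 0.710 (permutation p = 6e-05, adjusted 0.00108) and rho 0.648 (permutation p = 0.00037, adjusted 0.00558), in a family of 18 relations of the 3 genes with 6 lists that was chosen after the values were seen. Over all 28, r was 0.800 and, without the 2 farthest tumours, 0.647. Within ranges r was 0.303, 0.811 and 0.975, so it was weak in the lowest range. The value for the highest range includes A289I library 1, here and for the metabolism list. With the metabolism list, Myc gave r = 0.611 and rho = 0.575 over 27 tumours (permutation p = 0.00078 and 0.00232, adjusted 0.00468 and 0.0104), and -0.0817, 0.718 and 0.956 within ranges. Myc gave r = 0.649 with dividing-cell markers (permutation p = 0.0003, adjusted 0.0027) and -0.551 with neuron markers (permutation p = 0.00272, adjusted 0.00699). The part of cell content in the list relations was not tested.

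Pvt1 was related to the ribosome biogenesis and metabolism lists over the 27 tumours, with r = 0.587 and rho = 0.526 for ribosome biogenesis (permutation p = 0.00123 and 0.00546, adjusted 0.00511 and 0.0164). Within ranges r was 0.784, 0.724 and 0.899, the last with A289I library 1 included. Without the 2 tumours farthest in Pvt1, 1 of them that library, r was 0.543 (n = 26). With the metabolism list r was 0.554 and rho 0.570 (permutation p = 0.00249 and 0.00221, adjusted 0.00699 and 0.0104). With dividing-cell markers (r = 0.254, permutation p = 0.201, adjusted 0.346) and the cell cycle list (r = 0.386, permutation p = 0.0468, adjusted 0.0937) Pvt1 did not pass. With neuron markers Pvt1 gave r = -0.527 (permutation p = 0.00527, adjusted 0.0119) and rho = -0.415 (permutation p = 0.0328, adjusted 0.0739). Mycn was related to none of the 6 lists, with a lowest adjusted p of 0.362 for r (permutation).

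**Figure D5:**
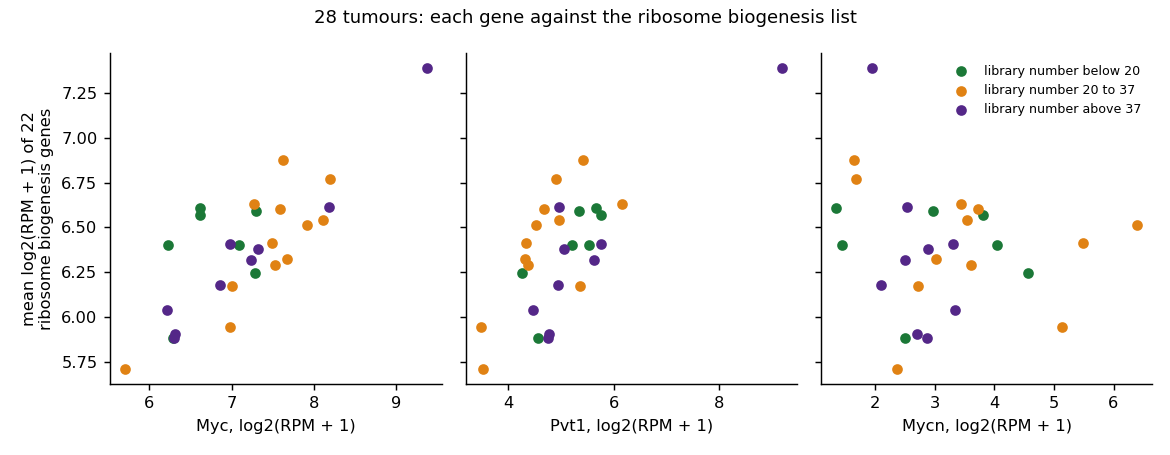
Mean log2(RPM + 1) of the ribosome biogenesis list (y axis) against log2(RPM + 1) of Myc, Mycn and Pvt1 (x axes) in the 28 tumours. Points are tumours, coloured by range of library number. The list mean goes up with Myc (r = 0.800) and Pvt1 (r = 0.742) and not with Mycn (r = -0.161), and A289I library 1 is the far point for Myc and Pvt1.

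Of 12539 genes that averaged 5 RPM or more, those whose order over the 28 tumours was most like that of Myc were Mettl13, a lysine methyltransferase of elongation factor 1A (rho = 0.90), Diexf, a nucleolar protein (0.89), Hdgf, hepatoma-derived growth factor (0.86), Nelfa, a subunit of the negative elongation factor (0.85), and Lyar, a nucleolar protein (0.85). Most like Mycn were Sall1, a zinc finger transcription factor (rho = 0.73), Gfod2 (0.72), Zfp36l1, an RNA decay factor (0.69), Stxbp4 (0.68) and Fnbp1l, a membrane-bending protein (0.67). Within the highest range of library numbers Zfp36l1 gave -0.07, Stxbp4 -0.68 and Fnbp1l 0, so these 3 were not alike there. Most like Pvt1 were Lrrc59, a ribosome receptor of the endoplasmic reticulum (rho = 0.82), Ybx3, a cold shock protein (0.81), Lars, the leucyl-tRNA synthetase (0.79), Ptpn9, a tyrosine phosphatase (0.79), and Phb, prohibitin (0.79). These ranks share libraries, depth and cell content, and carry no test.

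The 3 tumours with the most Mycn, T263P libraries 2 and 3 and A289V library 4, were picked after their values were seen and are described without a test. Ddx1, an RNA helicase and the next gene to Mycn, held 265 RPM in T263P library 2 against 101 to 214 in the 25 tumours with less Mycn, and 172 and 141 in the other two. Nbas, a vesicle transport factor beyond it, held 35.6, 31.95 and 39.7 RPM, within the 17.1 to 64.3 of the 25. Of 34 tested genes within 5 Mb of Mycn, 4, 1 and 4 stood at least 1 log2 unit above the median of the 25, where 4.83%, 4.14% and 6.07% of all genes did. At their highest of 28 tumours were 5, 1 and 0 of the 34, and at their lowest 1, 0 and 0. The share of all genes at such extremes there was not counted. Of the 62 MYC-activated targets, 1 (Tfrc), 3 (E2f1, Mcm5 and Shmt1) and 0 were at least 1 log2 unit higher in the 3 tumours. Medians of the 62 were 0.14, 0.03 and -0.45. A289V library 4 also had 9 of 10 neuron markers that much higher (sum of 2132 RPM), and T263P library 3 had 5 of 10 dividing-cell markers higher.

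Against cortex, many MYC-activated targets rose in the mCherry tumours. In limma 33 of 62 rose and 0 fell, with a median log2 fold change of 1.02 beside 0.01 over all genes, of which limma called 17.8% higher and 20.5% lower. Without cortex library 1 the count was 21, and without cortex library 2 it was 20. In the tumours with any of the 7 EGFR forms 40 of 62 rose and 0 fell (median 0.95 beside 0.03), where 22.9% of all genes were called higher and 24.3% lower. Unlike the tests of Myc and Pvt1, this count includes A289I and its library 1, where 30 of the 62 were at their highest of 28. Dividing-cell and neuron markers moved between mCherry tumours and cortex as given above for Myc, and their part was not tested.

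List by list, the counts stand beside the 17.8% of all genes called higher. In ribosome biogenesis 13 of 22 rose (median 1.03), with Nop58 up by 1.92 ± 0.36 (log2 fold change ± SE; limma, adjusted p = 0.000264) and Mybbp1a, a nucleolar regulator of ribosomal RNA synthesis, by 1.95 ± 0.37 (0.000309). Without cortex library 1 the count was 8, and without library 2 it was 7. In metabolism 9 of 18 rose (median 0.96), led by Shmt1, a serine hydroxymethyltransferase of folate metabolism, at 2.97 ± 0.46 and Hk2, hexokinase 2, at 3.09 ± 0.52 (limma, adjusted p = 3.71e-05 and 9.31e-05). That count was 4 without cortex library 1, 5 without cortex library 2 and 4 without mCherry library 3. In the cell cycle list 7 of 10 rose (median 2.70), among them Cks2, a CDK regulatory subunit, at 3.56 ± 0.40, Cdk4 at 3.07 ± 0.39, and Mcm7, a subunit of the replicative helicase, at 3.33 ± 0.46 (limma, adjusted p = 7.37e-07, 3.81e-06 and 9.10e-06). In translation and mitochondria 4 of 12 rose (median 0.70), with Eif4ebp1, a translation repressor, at 2.69 ± 0.58 (limma, adjusted p = 0.000992). It was 2 without either cortex library.

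Of the 6 MYC-repressed genes 1 rose, near the 17.8% of all genes, and 2 fell, beside 20.5%. Cdkn2b, an inhibitor of CDK4, rose by 4.26 ± 1.13 (limma, adjusted p = 0.00474), and Ndrg1 and Ndrg2 fell by 1.63 ± 0.57 and 1.84 ± 0.63 (0.0263 and 0.0243). These calls were the least stable. Without cortex library 1 neither direction held any call, without mCherry library 2 and without cortex library 2 the count of falls was 0, and without mCherry library 3 the count of rises was 2. In the MAX network 4 of 10 rose and 0 fell, led by Mxd3, a MAX partner that represses E-box genes, at 3.07 ± 0.41 (limma, adjusted p = 7.27e-06). Without cortex library 1 that count was 2. The falls numbered 1 with the filter at 5 RPM, with the term for 2 ranges, in DESeq2 and without mCherry library 1 or 3, and 2 with library weights. Of cofactors and turnover factors 7 of 17 rose and 3 fell, the falls near the 20.5% of all genes. Aurka, which shields N-MYC from degradation, rose by 3.99 ± 0.43 and Skp2 by 3.07 ± 0.51 (limma, adjusted p = 3.61e-07 and 7.76e-05). Fbxw7, the ubiquitin ligase subunit that marks MYC proteins for degradation, fell by 2.81 ± 0.51 (limma, adjusted p = 0.000198), from a mean of 246.8 RPM in cortex to 36.4 RPM in mCherry tumours. The rises in this list numbered 3 without cortex library 1, 4 without cortex library 2 and 4 without mCherry library 3, and the falls 1 without cortex library 1.

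Between EGFR-form and mCherry tumours 0 of the 62 targets passed in limma, edgeR or DESeq2, and 0 had an unadjusted p under 0.05 in limma. In A289V against mCherry 3 of 62 fell, where limma called 1.68% of all genes lower. They were E2f2, an S-phase transcription factor, by 1.51 ± 0.45, Cks2 by 1.14 ± 0.34, and Hspe1, the mitochondrial co-chaperonin HSP10, by 0.86 ± 0.25 (log2 fold change ± SE; limma, adjusted p = 0.0494, 0.0494 and 0.0493). These calls depended on the setting. No target fell with a pseudocount of 0.1, with no filter, with the term for 2 ranges, with only the groups compared, within library numbers below 20, or without A289V library 1, A289V library 2 or mCherry library 3. The count was 1 in edgeR and without mCherry library 1 or 2, 6 in DESeq2, 10 without A289I library 1 and 13 with library weights. Over all genes the 777 calls in limma (266 of them lower) became 2 with the term for 2 ranges, 3 with only the groups compared and 0 within numbers below 20. The median of the 62 was -0.51, and 5 of them had a higher mean in A289V. Cell markers differed in the same comparison. Dividing-cell markers had a median log2 fold change of -0.93, with 1 of 10 called lower and 0 with a higher mean. Of all 15824 genes, limma called 511 higher here. Neuron markers had a median of 1.97 with 0 of 10 called, myelinating oligodendrocyte markers 2.33 with 3 of 8 called higher, and astrocyte markers 0.98 with 1 of 8 called higher. Their part in the target values was not tested.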

How the data were processed

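The deposited tables hold 1 signal value per gene and library, gene counts that the authors divided by 1 size factor per library. All values gave whole reads (tolerance 0.05). RPM is the deposited name and was assumed in the design, but library sums were 9.31 to 12.0 times too large, so the values were divided by 10.3 (1 constant for all) and are called RPM. Tools named, without roles, per the submitters' processing notes, were FastQC, STAR 2.5.0a, mm10 and DESeq2 1.20.0; the counter and its strand setting are not given in the sources used here. Gene names turned into dates were kept as listed.

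On log2(RPM + 1), limma 3.58.1 (R 4.3.3) fitted 9 group means to 30 libraries with a robust eBayes trend. Tests were two-sided on 21 residual degrees of freedom, adjusted by Benjamini-Hochberg over 15824 genes (threshold 0.05). Because A289I library 1 was chosen for its Myc, tests of Myc and Pvt1 left the A289I group out of the contrasts, though its libraries still entered the shared variance; the fit without that library is among the alternatives. Fold changes on this scale understate those of low genes. Alternatives were a pseudocount of 0.1, no filter, a filter of 5 RPM, TMM scaling, library weights, library numbers in 2 ranges as a term, only the groups compared, each library left out, and edgeR 4.0.16 and DESeq2 1.42.0 on the recovered reads. Separate ranges, the relations with list means and the tumours with high Mycn were added after seeing the data. Correlations used 100000 permutations (scipy 1.17.1). Genes were named by rule: the 3 genes, the 5 most alike, protein-coding genes within 2 Mb of Myc, the 10 that most set A289I library 1 apart, and up to 4 list members with the smallest p. Neighbours beyond 2 Mb, other targets in A289I library 1 and the genes beside Mycn were picked after their values were seen. The members, lists and rules were chosen with earlier results of these data known. Positions are from GENCODE M21.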

Additional observations from a re-analysis of the deposited data

Results flagged for a closer look

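Each of Myc, Mycn and Pvt1 was examined in the 3 groups of 4 or 5 tumours for a library set apart from the others. The rule was a gap to the nearest other, as a share of the range in RPM, above Dixon's 95% critical value. The flags hold for the RPM scale and not for the log2 scale of the other tests. Of these 9 sets 4 held such a library, Myc and Pvt1 in A289I among them. The first pair is a description only, since A289I library 1 was known for its Myc when the genes were chosen. It stood apart in Myc, at 660.4 RPM with the other 4 at 78.1 to 149. It also stood apart in Pvt1, at 587 RPM with the others at 26 to 53.0. For the remaining sets, chance alone marks about 1 in 20 if values are normally distributed, which was not tested for these RPM values. A289V library 4 stood apart in Mycn, at 34.2 RPM with the others at 4.13 to 5.60. R108K library 4 stood apart in Mycn, at 11.1 RPM with the others at 1.53 to 2.19.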

How the results depend on the processing

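Of 601 alternative values for the 3 genes and the combined target list, 581 were labelled as unchanged. For tests this meant the same direction and side of the threshold, and counts were judged by their size. The 601 include counts of single EGFR forms and of targets against mCherry that were 0 in every run. Myc against cortex did so in every alternative run, at 4.63 to 5.30 (mCherry) and 4.44 to 4.94 (EGFR forms) on the log2 scale. Pvt1 against cortex passed in mCherry tumours with library weights (1.56), with only the groups compared (1.64) and without A289I library 1 (1.64), and in EGFR-form tumours with library weights (1.57), only the groups compared (1.59), DESeq2 (1.81) and without A289I library 1 (1.59). Leaving out 1 library at a time gave 1.33 to 1.97 and 1.49 to 1.70. The difference between EGFR forms and mCherry changed sign for Mycn within library numbers above 37 (0.18), and for Pvt1 with library weights (0.0125), within numbers below 20 (0.29), and without wild-type EGFR library 3 (0.0013), mCherry library 2 (0.26) or R222C library 2 (0.02). Leaving out 1 library at a time gave -0.38 to 0.26 for Pvt1, and an adjusted p of 0.0181 to 0.519 in the Mycn F-test. That F-test gave 0.0246 with library weights, 0.0475 in edgeR and 0.00164 in DESeq2. The count of MYC-activated targets above cortex was 20 to 37 when 1 library was left out. Spearman's rho of Myc and Pvt1 was -0.0195 without A289I library 1. The cause of these changes was not tested. Counts of single lists moved by over 1.5 times in 32 of 864 alternatives, 22 of them downward. With 2 cortex libraries and 3 to 5 per tumour group, and as few as 4 reads of Mycn, small differences were not detectable. No paired analysis was possible because the library numbers in the titles are not shared between groups and the replicate numbers only follow the order of deposit.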
